A study of Mus musculus with 8 samples.

Results

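Platelet-derived growth factors (PDGFs) and their receptors are encoded by 6 mouse genes: the receptor genes Pdgfra and Pdgfrb and the ligand genes Pdgfa, Pdgfb, Pdgfc and Pdgfd. They were taken by symbol from the 24346 genes of the deposited table, with earlier results of these data known. Transcriptomes were sequenced from 8 samples of induced immature oligodendrocytes (iOLs), 4 labelled WT (Med23+/+ below) and 4 labelled MED23KO (Med23-/- below). The aim was to ask what the loss of Med23 does to the transcriptome of differentiating cells. Med23 is a subunit of the Mediator complex, which links transcription factors to RNA polymerase II. In the study's methods, Med23-/- cells come from Med23 fl/fl mice that carry Olig1-Cre, which deletes the floxed gene in the oligodendrocyte (OL) lineage, and the controls are Med23 fl/fl littermates without Cre, so that the presence of Cre and the loss of Med23 cannot be told apart. Oligodendrocyte precursor cells (OPCs) were taken from the brain of mouse pups, cleared of endothelial cells and microglia on lectin-coated plates, and captured on plates coated with an antibody to CD140a. For all 8 samples the cells were then grown in 10 ng/mL PDGF-AA with 1 ng/mL NT-3. They were taken after 1 day in 15 nM T3 (thyroid hormone) and 10 ng/mL CNTF (ciliary neurotrophic factor). CD140a is the protein product of Pdgfra and PDGF-AA is a dimer of the product of Pdgfa, so that the cells of both genotypes had been selected on one member of the family and expanded with another.

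PDGF chains act as dimers on receptor tyrosine kinases at the cell surface. The α receptor binds the A, B and C chains, and the β receptor binds mainly the B and D chains. A dimer joins the receptors into pairs, which phosphorylate each other and recruit adaptors that switch on the Ras-ERK and PI3K-AKT pathways. In the brain, PDGF-AA from neurons and astrocytes is the main mitogen of OPCs, Pdgfra is the usual OPC marker and is shut off as the cells mature, while Pdgfrb marks pericytes and Pdgfb is made by the endothelium beside them.

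The study is concerned with Sp1, a transcription factor that binds GC-rich DNA, and the sequences just upstream of the Pdgfra and Pdgfc start sites are shown because these are the member with the largest difference between the genotypes and the tested ligand whose groups overlapped. Both are RefSeq promoter windows of GRCm38.p6 on the plus strand, 250 bases ending at the base before the start site, at chr5:75152001-75152250 for Pdgfra and chr3:81036166-81036415 for Pdgfc. The capitals mark an unbroken run of 11 G.
Pdgfra: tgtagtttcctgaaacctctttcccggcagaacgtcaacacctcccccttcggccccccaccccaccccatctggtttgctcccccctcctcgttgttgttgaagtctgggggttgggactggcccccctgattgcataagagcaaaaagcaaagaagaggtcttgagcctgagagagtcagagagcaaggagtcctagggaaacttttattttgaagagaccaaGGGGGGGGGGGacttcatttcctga
Pdgfc: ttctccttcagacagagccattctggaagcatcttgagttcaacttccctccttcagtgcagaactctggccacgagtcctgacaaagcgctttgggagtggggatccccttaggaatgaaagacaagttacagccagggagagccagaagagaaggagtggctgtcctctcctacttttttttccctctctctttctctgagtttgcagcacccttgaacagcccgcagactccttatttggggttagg

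The windows were searched on both strands for the core of the GC box, GGGCGG, the full box GGGGCGGGG, and the box with its central C replaced by G, GGGGGGGGG. In the study this replaced box served as the weak form, to which Sp1 binds much less than to the full box. Neither window held GGGCGG or GGGGCGGGG, which stand in 32.7% and 10.4% of 32851 mouse promoter windows of the same length (the first motif lies inside the second). GGGGGGGGG matched 3 overlapping times in the Pdgfra window, within the run of 11 G, whereas 3.15% of all windows hold at least 1 match. The G and C content was 54.4% for Pdgfra and 50.8% for Pdgfc. Pdgfa has 2 RefSeq start sites, whose windows held 1 and 2 matches to GGGCGG at 66.4% and 72.4% G and C, and the Pdgfd window held none. Both Pdgfa windows overlap an annotated exon, whereas those of Pdgfra, Pdgfc and Pdgfd do not, so the Pdgfa windows are not like the others. These letters describe the windows only, and binding was not measured in these libraries. Sp1 itself was not called, with 21.2 ± 1.23 FPKM in control and 25.0 ± 3.40 FPKM in Med23-/- iOLs (SD over 4 libraries, limma adjusted p = 0.119).

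Expression was deposited as FPKM, the fragments assigned to a gene scaled by its length and by the library. FPKM is a relative measure, so comparisons of levels between genes, such as the ratios and shares below, are approximate. The depth in reads is unknown. From the spacing of the lowest values, 1 read was worth between 0.741 and 1.00 times as much in the Med23+/+ libraries as in Med23+/+ replicate 1, and between 0.762 and 1.02 times in the Med23-/- libraries. Med23 fell from 12.5 ± 0.225 to 8.26 ± 0.247 FPKM (log2 fold change -0.55, limma adjusted p = 0.000353), with no overlap between the genotypes. Much Med23 transcript thus remained in the Med23-/- libraries. How complete the deletion was cannot be read from these gene-level values. The labelled cell type was checked by the summed FPKM of markers, without the PDGF genes. OL lineage markers summed to 1791 to 2063 FPKM in Med23+/+ and 1250 to 1764 FPKM in Med23-/- libraries, far above the sums for mural cells (5.58 to 6.67 and 4.78 to 10.6 FPKM), endothelium (0.509 to 1.19 and 1.17 to 3.03 FPKM) and microglia (0.989 to 1.74 and 1.34 to 1.89 FPKM). Neuronal markers stood apart by genotype, with sums of 42.5 to 70.2 FPKM in control and 89.3 to 189 FPKM in Med23-/- libraries, and 6 of the 7 were called higher. No list had a marker at 0 in all 8 libraries.

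**Figure D1:**
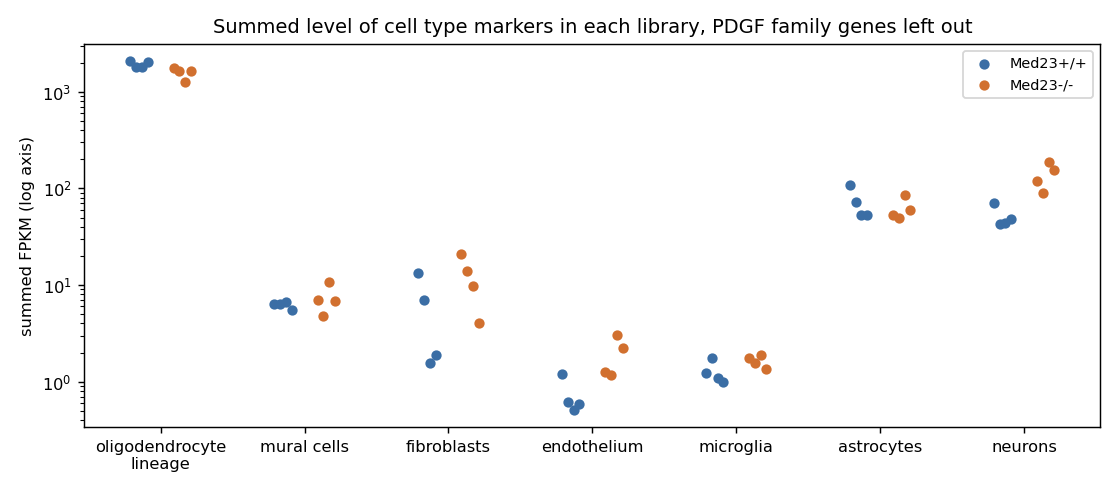
Summed FPKM of the marker genes of 7 cell types in each library (log axis; blue, Med23+/+; orange, Med23-/-; 1 point per library). The OL lineage sums lie between 1250 and 2063 FPKM in all 8 libraries, and the neuronal sums are the only ones besides those of the OL lineage whose genotypes do not overlap.

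The genotypes were compared with limma on log2(FPKM + 1) for genes whose mean reached 1 FPKM, and a gene was called when its adjusted p was under 0.05. Of the 6 PDGF genes, 3 passed the level filter, Pdgfra, Pdgfa and Pdgfc, and the other 3 were below 0.5 FPKM in every library. Pdgfra was higher in Med23-/- iOLs, Pdgfa was lower, and Pdgfc was not called. The libraries of the genotypes did not overlap for Pdgfra and Pdgfa, as for 31.6% of the genes tested. Over all 12328 genes tested, 30.0% were called, 15.9% higher and 14.1% lower, so that a call by itself is common in this comparison. Higher calls with a fold change above 2, the class of Pdgfra, made up 2.98% of the genes tested.

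**Figure D2:**
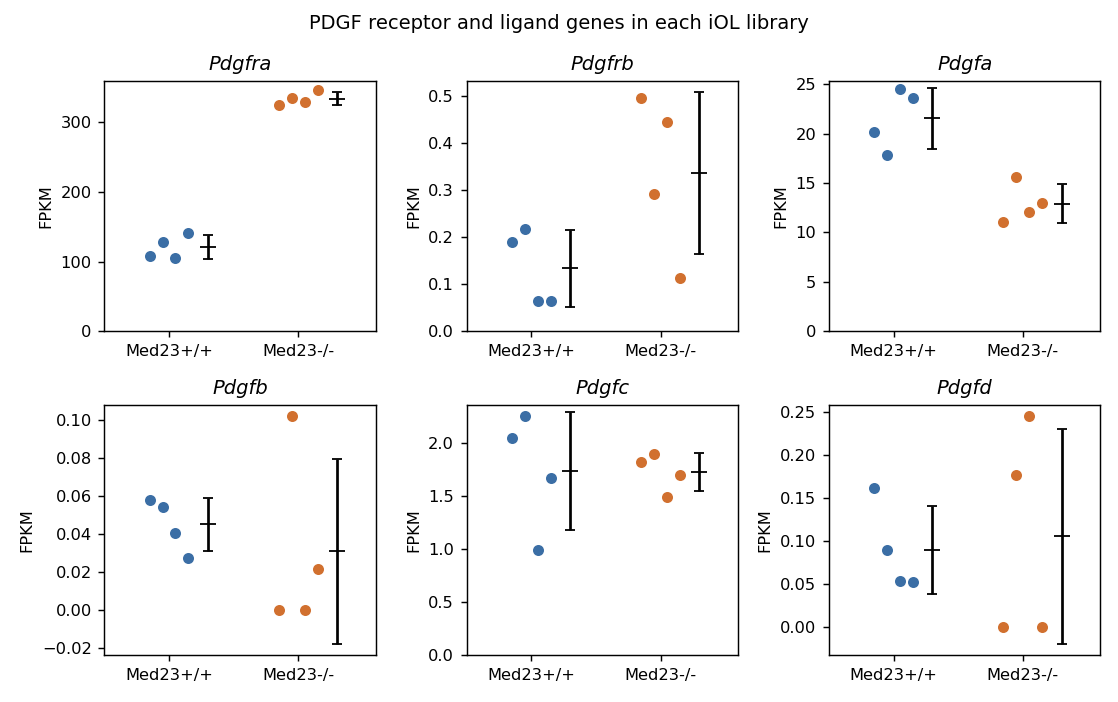
FPKM of the 6 PDGF genes in each library, with the mean and SD of each genotype beside the points (n = 4 each; linear axes that differ between genes). Pdgfra lies at 105 to 141 FPKM in control and at 325 to 347 FPKM in Med23-/- iOLs and Pdgfa at 17.8 to 24.5 and 11.0 to 15.6 FPKM, while the genotypes overlap for the other 4 genes.

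Pdgfra (chromosome 5, 75152292 to 75198215, plus strand, mm10) was by far the most abundant member. It had 107.7, 129, 105 and 141 FPKM in Med23+/+ replicates 1 to 4 and 325, 335, 329.6 and 347 FPKM in Med23-/- replicates 1 to 4. Each Med23-/- library was above each Med23+/+ library, and the lowest Med23-/- value was more than 2 times the highest Med23+/+ value. The means were 121 ± 17.2 and 334 ± 9.59 FPKM (SD, n = 4 per genotype), a ratio of 2.77. The log2 fold change was 1.47 with a standard error (SE) of 0.10, a 95% interval of 1.24 to 1.70 and a limma adjusted p of 2.33e-05, and the two-sided exact permutation test gave p = 0.0286, the smallest it can give for 4 libraries against 4. By mean FPKM, 2.32% of the 24346 genes lay above Pdgfra in Med23+/+ and 0.776% in Med23-/- iOLs, and 77 of the genes tested had a higher log2 fold change.

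The size of the Pdgfra difference was 1.48 on the log2 scale between replicates 1 and 2 of the genotypes and 1.47 between replicates 3 and 4. Between single libraries of the same number it was 1.59, 1.37, 1.64 and 1.29 for replicates 1 to 4. In these bulk samples, more cells with the transcript and more transcript per cell cannot be told apart. The neuronal marker sums were also higher in the Med23-/- libraries, as given above, and the part of neurons in the Pdgfra value was not tested. Fibroblasts also express Pdgfra. Their 6 markers summed to 1.56 to 13.2 FPKM in Med23+/+ (mean 5.93) and 4.01 to 20.7 FPKM in Med23-/- libraries (mean 12.2). The part of fibroblasts in the Pdgfra value was not tested. GENCODE annotates Gm42802 and Gm42803 within the Pdgfra locus. Whether counting used strand is not given in the sources used here, so that their reads and those of Pdgfra cannot be told apart.

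Pdgfrb (chromosome 18, 61045150 to 61085061, plus strand), the receptor of pericytes, was near the floor. Its values were 0.190, 0.216, 0.0636 and 0.0635 FPKM in Med23+/+ and 0.496, 0.291, 0.444 and 0.113 FPKM in Med23-/- replicates 1 to 4. Higher values were seen in 14 of the 16 pairs of a Med23-/- with a Med23+/+ library, and the genotypes overlapped. The means were 0.133 ± 0.0812 and 0.336 ± 0.172 FPKM (SD, n = 4 per genotype), 0.23 apart on the log2(FPKM + 1) scale, and the two-sided exact permutation test gave p = 0.114. With a pseudocount of 0.1 in place of 1 the difference was 0.87 and the exact permutation p was the same. A fit without the level filter gave the same difference with a limma adjusted p of 0.130, where 19.8% of the genes above 0 in at least 1 library were called. The fibroblast marker sum was likewise higher in replicates 1 and 2 than in 3 and 4 of Med23+/+, at 13.2, 7.06, 1.56 and 1.88 FPKM in replicates 1 to 4, and stood at 20.7, 14.1, 9.88 and 4.01 FPKM in Med23-/-. The mural cell markers summed to 6.38, 6.38, 6.67 and 5.58 FPKM in Med23+/+ and 6.98, 4.78, 10.6 and 6.78 FPKM in Med23-/-. The part of these cells in the Pdgfrb values was not tested. Of the 11 mural markers other than Pdgfrb, 4 were tested and 1 was called higher, Mcam, at 1.78 ± 0.255 FPKM in control and 3.01 ± 0.569 FPKM in Med23-/- iOLs (log2 fold change 0.52, limma adjusted p = 0.0167). Tagln went the other way, from 2.36 ± 0.509 to 1.30 ± 0.785 FPKM, and was not called (log2 fold change -0.59, limma adjusted p = 0.0735). Acta2 (0.25) and Notch3 (0.18) were not called either. Kcnj8 was at the low end by level, listed at 0 in all Med23+/+ libraries and at 0.0325 FPKM in 1 Med23-/- library. Pdgfra supplied between 99.8% and 99.97% of the summed FPKM of both receptor genes in every library.

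Among the ligand genes 1 was called, and it was lower. Pdgfa (chromosome 5, 138976014 to 138997370, minus strand), which encodes the A chain, was the main ligand gene of the cells. It had 20.2, 17.8, 24.5 and 23.6 FPKM in Med23+/+ and 11.0, 15.6, 12.02 and 12.9 FPKM in Med23-/- replicates 1 to 4. All 4 Med23-/- libraries were below all 4 Med23+/+ libraries, by a narrow margin between Med23+/+ replicate 2 and Med23-/- replicate 2. The mean fell from 21.5 ± 3.11 to 12.9 ± 1.97 FPKM (SD, n = 4 per genotype), to 0.599 of the control level. The log2 fold change was -0.70 with a standard error of 0.13, a 95% interval of -0.98 to -0.41 and a limma adjusted p of 0.00307, and the two-sided exact permutation test again gave p = 0.0286. The difference was -0.50 on the log2 scale between replicates 1 and 2 and -0.90 between replicates 3 and 4. Pdgfa thus did not pass a fold change of 2, as 1.75% of the genes tested did among the lower ones, and 488 of the genes tested had a lower log2 fold change. Of 6 astrocyte markers, 2 were called lower, Gfap (13.6 ± 11.1 to 3.12 ± 2.26 FPKM) and Aqp4 (6.81 ± 2.44 to 2.34 ± 1.69 FPKM), with limma adjusted p of 0.0222 and 0.0120. Slc1a2, another of the 6, was called higher (11.0 ± 3.0015 to 17.8 ± 3.21 FPKM, limma adjusted p = 0.0222). The 6 summed to 53.2 to 107.7 FPKM over the control and 49.0 to 85.0 FPKM over the Med23-/- libraries. Neuronal markers went the other way from Pdgfa, with sums of 42.5 to 70.2 FPKM in control and 89.3 to 189 FPKM in Med23-/- libraries. The part of astrocytes or neurons in the Pdgfa level was not tested. GENCODE annotates 6330403L08Rik over the Pdgfa locus, and their reads cannot be told apart either.

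Pdgfc (chromosome 3, 81036416 to 81214040, plus strand) encodes a chain that is secreted with a CUB domain and becomes active once a protease removes it. It was measured at 2.04, 2.26, 0.988 and 1.66 FPKM in Med23+/+ and 1.82, 1.89, 1.49 and 1.69 FPKM in Med23-/- replicates 1 to 4. Both the highest and the lowest value came from Med23+/+ libraries. The means were 1.74 ± 0.556 and 1.72 ± 0.176 FPKM (SD, n = 4 per genotype), and the log2 fold change was 0.015 with a standard error of 0.16 (limma adjusted p = 0.955). The 95% interval of the difference ran from -0.34 to 0.38, so that the 8 libraries leave room for a change of up to these values in either direction. The sign of the Pdgfc value turned when Med23+/+ replicate 3, its lowest library, was left out (-0.13, limma adjusted p = 0.482).

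The B and D chain genes were at the limit of detection. Pdgfb (chromosome 15, 79995874 to 80014977, minus strand) had 0.0580, 0.0543, 0.0408 and 0.0276 FPKM in Med23+/+ replicates 1 to 4. In Med23-/- iOLs it was listed at 0 in replicates 1 and 3, with 0.102 and 0.0220 FPKM in replicates 2 and 4 (difference of log2(FPKM + 1) -0.021, two-sided exact permutation p = 0.600). Pdgfd (chromosome 9, 6168584 to 6378850, plus strand), whose product like that of Pdgfc carries a CUB domain, had 0.161, 0.0896, 0.0532 and 0.0517 FPKM in Med23+/+ replicates 1 to 4. It was listed at 0 in Med23-/- replicates 1 and 4, with 0.176 and 0.245 FPKM in replicates 2 and 3 (difference of log2(FPKM + 1) 0.016, two-sided exact permutation p = 0.857). The genotypes overlapped for both genes, and Pdgfd shares its locus with Ddi1. Markers of endothelium, the usual source of the B chain, were likewise low, as given above.

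The order of the 6 genes by mean FPKM was the same in both genotypes. Pdgfra stood above Pdgfa by 5.61 times in Med23+/+ and 25.9 times in Med23-/- iOLs, Pdgfa above Pdgfc by 12.4 and 7.48 times, and Pdgfc above Pdgfrb by 13.0 and 5.13 times. None of these 3 neighbours overlapped in either genotype. Pdgfrb, Pdgfd and Pdgfb followed, and each overlapped the next in the order, so that their places do not differ beyond their spread. Within single libraries the FPKM of Pdgfra was 5.34, 7.22, 4.29 and 5.97 times that of Pdgfa in Med23+/+ and 29.5, 21.5, 27.4 and 26.9 times in Med23-/- replicates 1 to 4. This ratio of receptor to ligand transcript averaged 5.71 ± 1.23 and 26.3 ± 3.42 (SD, n = 4 each). Its genotypes could not overlap, because Pdgfra was higher and Pdgfa lower in every Med23-/- library, so this separation adds nothing to those results.

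Pdgfa made up most of the ligand transcript in all libraries. Its share of the summed FPKM of the 4 ligand genes was 88.1% to 95.8% in Med23+/+ and 85.8% to 88.3% in Med23-/- iOLs, with means of 91.7 ± 3.39% and 87.3 ± 1.05% (SD, n = 4 each). The Pdgfc share was 3.86% to 11.2% in Med23+/+ and 10.7% to 14.2% in Med23-/- iOLs. The ranges of both shares overlapped between the genotypes.

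The other genes of the pathway were taken from lists by role, and their counts stand beside those over all genes tested, 15.9% higher, 14.1% lower and a median log2 fold change of -0.012. Among the 6 proteases known to process PDGF chains, 4 were tested, and 1 rose, 1 fell and 2 were not called, with a median log2 fold change of 0.096. Pcsk5, a proprotein convertase that can cleave the A chain precursor, was at 0.871, 0.859, 0.579 and 0.937 FPKM in Med23+/+ and 4.16, 4.51, 5.21 and 6.28 FPKM in Med23-/- replicates 1 to 4. Pcsk5 passed the level filter through the Med23-/- libraries alone, the groups lay far apart, and the log2 fold change was 1.73 (SE 0.13, limma adjusted p = 3.58e-05), above that of Pdgfra. Pcsk6, a convertase of the same family, fell from 13.6 ± 1.43 to 10.1 ± 0.464 FPKM (log2 fold change -0.38, limma adjusted p = 0.0101). Furin, the most widely expressed of the convertases, was at 8.08 ± 0.938 and 9.49 ± 1.01 FPKM (limma adjusted p = 0.157). Plat, the tissue plasminogen activator that activates the C chain, was at 12.1 ± 1.34 and 11.98 ± 1.19 FPKM (limma adjusted p = 0.921). Plau and St14, which activate the D chain, were below the level filter.

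Of 9 genes for co-receptors and binding proteins, 6 were tested, 3 rose and none fell, with a median log2 fold change of 0.38. Cspg4, the NG2 proteoglycan that marks OPCs and binds PDGF-AA, had 34.3, 34.7, 35.2 and 51.5 FPKM in Med23+/+ and 107.5, 92.7, 91.7 and 118 FPKM in Med23-/- replicates 1 to 4. Its libraries were separated by genotype, as those of Pdgfra were, at a log2 fold change of 1.39 (SE 0.14, limma adjusted p = 0.000141). Nrp1, a co-receptor of several growth factors, rose from 1.40 ± 0.282 to 2.67 ± 0.273 FPKM (limma adjusted p = 0.00473). Lrp1, an endocytic receptor that associates with the PDGF β receptor, rose from 101 ± 6.72 to 148 ± 11.0 FPKM (limma adjusted p = 0.00120). The integrin gene Itgav (limma adjusted p = 0.177) and the secreted PDGF-binding proteins Sparc (0.670) and A2m (0.196) were not called. Pdgfrl, Itgb3 and Thbs1 were below the level filter.

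**Figure D3:**
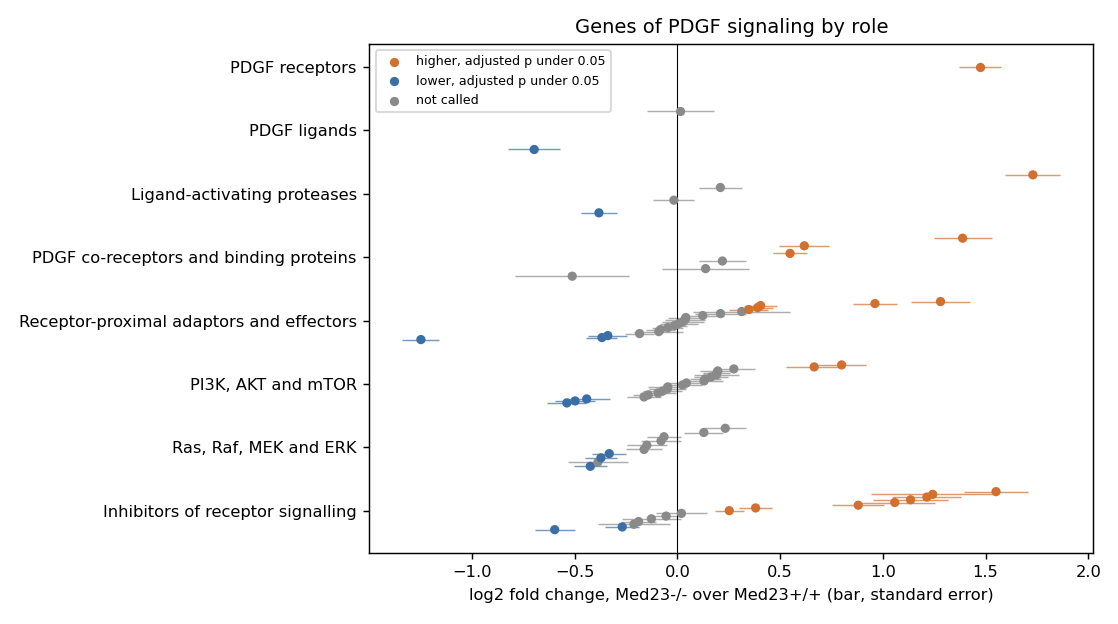
Log2 fold change with its standard error for each tested gene of PDGF signaling, in 8 groups by role (orange, called higher; blue, called lower; grey, not called). Pdgfra stands alone among the receptors at 1.47, Pdgfa lies at -0.70 among the ligands, and the inhibitors of receptor signalling hold 8 genes called higher and 2 called lower.

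Next to the receptor, 20 of 22 adaptors and effectors were tested. Of these 5 rose, 3 fell and 12 were not called, with a median log2 fold change of 0.033. Nck2, an adaptor that links the phosphorylated receptor to the cytoskeleton, rose from 4.25 ± 0.633 to 11.8 ± 2.31 FPKM (log2 fold change 1.28, limma adjusted p = 0.000212). Src, a kinase that docks on the receptor, rose from 18.7 ± 2.83 to 37.1 ± 2.51 FPKM (log2 fold change 0.96, limma adjusted p = 0.000219). Its relative Fyn, which is also required for OL maturation, went down. Fyn had 412, 398, 444 and 376 FPKM in Med23+/+ and 166, 192, 158 and 169.5 FPKM in Med23-/- replicates 1 to 4 (log2 fold change -1.25, limma adjusted p = 2.71e-05). Sos2, an exchange factor that loads Ras, fell from 18.4 ± 0.896 to 14.1 ± 0.958 FPKM (limma adjusted p = 0.00571).

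The downstream arms were taken as a pair of lists. In the PI3K, AKT and mTOR arm 2 of 20 tested genes rose, 3 fell and 15 were not called, with a median log2 fold change of 0.035. Foxo1 and Foxo3, transcription factors that AKT holds out of the nucleus, rose from 1.04 ± 0.111 to 2.56 ± 0.359 FPKM (limma adjusted p = 0.000966) and from 13.1 ± 2.10 to 21.3 ± 3.46 FPKM (limma adjusted p = 0.00611). Rictor, the defining subunit of mTOR complex 2, fell from 22.2 ± 1.35 to 15.1 ± 1.83 FPKM (limma adjusted p = 0.00258), and Pik3r3, a regulatory subunit of PI3K, from 36.7 ± 3.21 to 25.8 ± 2.97 FPKM (limma adjusted p = 0.00446). In the Ras, Raf, MEK and ERK arm none of 10 tested genes rose, 3 fell and 7 were not called, with a median log2 fold change of -0.16. Araf, a Raf kinase, fell from 51.1 ± 4.73 to 37.8 ± 1.69 FPKM (limma adjusted p = 0.00406), and Nras, a Ras GTPase, from 50.01 ± 2.997 to 38.4 ± 2.39 FPKM (limma adjusted p = 0.00545).

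Genes that restrain receptor signalling were taken as a list of 15. All were tested, 8 rose, 2 fell and 5 were not called, with a median log2 fold change of 0.25. Of the 8, 5 rose by more than 2-fold, namely Spry1, Spry2 and Spry4, which encode Sprouty inhibitors of the Ras-ERK pathway, and Dusp4 and Dusp6, which encode phosphatases of ERK (Spry2, Spry4 and Dusp6 were named after their values were seen). Spry1 had 12.8, 12.2, 11.0 and 17.2 FPKM in Med23+/+ and 39.3, 36.4, 35.3 and 52.5 FPKM in Med23-/- replicates 1 to 4 (log2 fold change 1.55, SE 0.15, limma adjusted p = 0.000126). Replicate 4 was the highest of its genotype for Spry1, as it was for Pdgfra. The log2 fold changes were 1.21 for Spry4, 1.13 for Dusp6 and 1.06 for Spry2, with limma adjusted p of 0.000718, 0.00150 and 0.00319. Dusp4 was less even, at 14.5, 6.13, 3.86 and 5.26 FPKM in Med23+/+ and 20.1, 14.9, 17.98 and 15.6 FPKM in Med23-/- replicates 1 to 4 (log2 fold change 1.24, limma adjusted p = 0.0120). Its Med23+/+ replicate 1 came close to the lowest Med23-/- library. Ptprj, a phosphatase that acts on PDGF receptors, fell from 43.3 ± 4.35 to 28.3 ± 2.79 FPKM (limma adjusted p = 0.00162). Ptpn1, another such phosphatase, fell from 26.4 ± 1.71 to 21.8 ± 1.78 FPKM (limma adjusted p = 0.0345). The Ptpn1 call was lost in 6 of 8 fits without 1 library (adjusted p up to 0.0909), and in those without Med23-/- replicate 4 or Med23+/+ replicate 2 it held.

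Pdgfra lies in a cluster of receptor tyrosine kinase genes with Kit and Kdr, which are related to it in sequence and follow it on the chromosome. Kit, the stem cell factor receptor, starts 422.6 kb from Pdgfra and had 4.45, 4.43, 3.39 and 4.12 FPKM in Med23+/+ and 13.1, 10.6, 12.6 and 12.7 FPKM in Med23-/- replicates 1 to 4. The genotypes were well separated, and the log2 fold change of 1.38 (SE 0.10, limma adjusted p = 2.94e-05) was close to that of Pdgfra, although the Kit level was far lower. Kdr, the main VEGF receptor of endothelium, lies at 780.5 kb and had 0.963, 0.332, 0.378 and 0.347 FPKM in Med23+/+ and 0.906, 0.879, 2.69 and 2.11 FPKM in Med23-/- replicates 1 to 4. It passed the level filter through the Med23-/- libraries alone, its groups overlapped, and the log2 fold change of 0.77 (SE 0.25, limma adjusted p = 0.0398) was lost without Med23+/+ replicate 2, 3 or 4 or Med23-/- replicate 3 or 4 (adjusted p 0.0898 to 0.0914). With a pseudocount of 0.1 the Kdr value was 1.49 (limma adjusted p = 0.0335). Csf1r, Flt1, Flt3 and Flt4, the other receptors of these classes, were below the level filter. Csf1r, which marks microglia and lies beside Pdgfrb on the genome, ranged from 0.0975 to 0.212 FPKM over the control and from 0.0759 to 0.272 FPKM over the Med23-/- libraries.

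**Figure D4:**
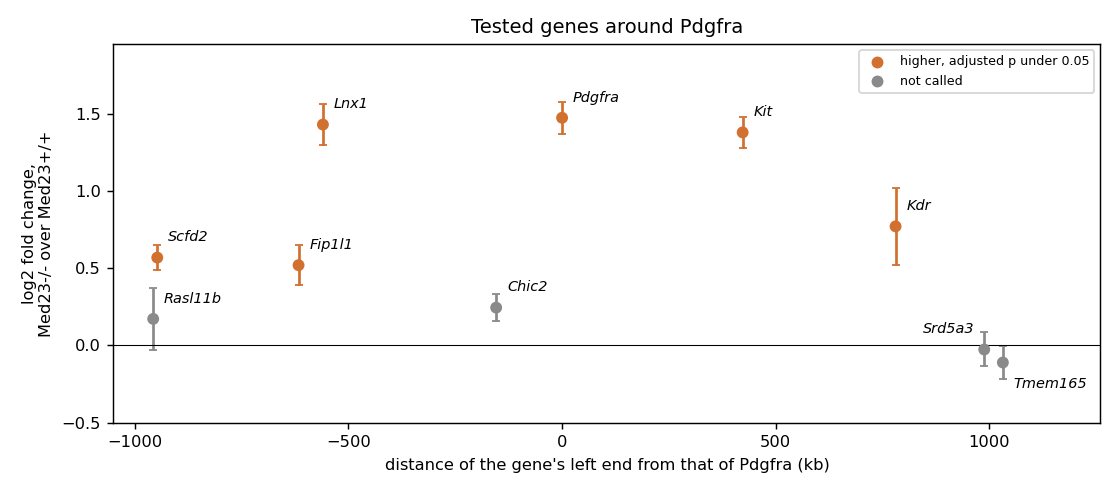
Log2 fold change with its standard error of Pdgfra and the 9 other tested genes within 1000 kb, against the distance of each gene's left end from that of Pdgfra. Lnx1, Pdgfra and Kit lie between 1.38 and 1.47, while Chic2, between Lnx1 and Pdgfra, is at 0.24 and was not called.

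The wider neighbourhood of Pdgfra was added after the values of Kit and Kdr were known. Within 1000 kb on either side, 9 other genes were tested, and 5 of them were called higher and none lower, beside 15.9% higher and 14.1% lower over all genes tested. Besides Kit and Kdr, of which the latter lost its call without single libraries, these were Lnx1, a ubiquitin ligase gene (log2 fold change 1.43), Scfd2 (0.57) and Fip1l1, which encodes an mRNA 3′ end processing factor (0.52), with limma adjusted p of 8.86e-05, 0.000789 and 0.0147. Lnx1 and Fip1l1 overlap at their ends on opposite strands, so that reads in the shared stretch cannot be told apart here. Chic2, the tested gene nearest to Pdgfra, was not called (0.24, limma adjusted p = 0.0591), nor were Rasl11b (0.17), Srd5a3 (-0.026) and Tmem165 (-0.11). Around Pdgfa, on the same chromosome, 33 other genes were tested in a window of the same width, 6 of them called higher and 2 lower, beside the same shares over all genes.

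The 5 genes with the pattern most like that of Pdgfra were chosen by the root mean square difference of log2(FPKM + 1) over the 8 libraries, each gene taken relative to its Med23+/+ mean. They were Pitpnc1 (0.0996), Pcdh15 (0.112), Lnx1 (0.114), Aif1l (0.126) and Brinp2 (0.129), against a median of 1.07 over the genes tested. Pitpnc1, a phosphatidylinositol transfer protein gene, rose from 10.8 ± 0.925 to 33.1 ± 3.58 FPKM, and Pcdh15, a protocadherin gene known to be expressed in OPCs, from 29.4 ± 4.09 to 82.6 ± 4.13 FPKM. Lnx1 rose from 18.9 ± 4.02 to 52.1 ± 4.70 FPKM, Aif1l from 12.7 ± 1.49 to 33.7 ± 2.45 FPKM and Brinp2 from 14.3 ± 1.27 to 39.0 ± 3.60 FPKM. Pdgfra had the highest FPKM of these 6 genes in both genotypes. The likeness was measured on the same 8 libraries and is a description of them.

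Vascular endothelial growth factors are the nearest relatives of the PDGF chains. Of the VEGF ligand genes 2 were tested. Vegfa, which is induced by low oxygen, had 14.9, 16.3, 8.78 and 8.04 FPKM in Med23+/+ and 4.93, 3.96, 6.23 and 4.93 FPKM in Med23-/- replicates 1 to 4. Like Pdgfa it was lower in all Med23-/- libraries (log2 fold change -1.07, limma adjusted p = 0.00538). Its Med23+/+ libraries fell into replicates 1 and 2 above replicates 3 and 4, whereas for Pdgfa replicates 3 and 4 were the higher ones. Vegfb was not called, with 23.7 ± 2.68 and 26.9 ± 7.44 FPKM (limma adjusted p = 0.551). Vegfc, Figf and Pgf were below the level filter.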

How the data were processed

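RNA was sequenced from 8 iOL samples, 4 Med23+/+ and 4 Med23-/-. Per the study's methods, the authors trimmed reads (Cutadapt), aligned them (Tophat2, mm10) and ran cuffdiff with -b and -u. Tool versions, the gene annotation and the strand setting are not given in the sources used here. The authors deposited FPKM per library for 24346 genes by symbol, with fold changes, test statistics, p and q values and means per genotype that were not used. Read counts were not used here, so depth is unknown, and no library column was dropped.

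The comparison used log2(FPKM + 1), which understates changes of weakly expressed genes, for the 12328 genes whose mean over the 8 libraries reached 1 FPKM. It was run in limma 3.58.1 under R 4.3.3 (lmFit, eBayes with a mean-variance trend, all 8 libraries, no covariate, Benjamini-Hochberg over all genes tested). For single genes below the filter, a two-sided exact permutation test over the 8 libraries was used. Replicates were not paired, and nothing says that they came from separate animals, so p-values measure the spread between these samples, which may be technical.

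The PDGF genes and the lists were chosen with earlier results of these data known. All 6 PDGF genes, Med23, the members of the protease, co-receptor, related receptor and VEGF lists, up to 2 called genes in each direction from every other list (highest and lowest log2 fold change) and the 5 genes most like Pdgfra were named. Sp1, Sox6, the markers (with Sox10 and Olig2) and the neighbours of Pdgfra other than Kit and Kdr were added after their values were seen. Coordinates are from GENCODE vM21 and promoters from RefSeq (GRCm38.p6), with entries for 4 of the 6 PDGF genes. The fit was tested on simulated data before use. Alternatives were a pseudocount of 0.1, no level filter, a level filter of 5 FPKM, quantile and median-ratio scaling, no variance trend, the replicate number as a block, a covariate that splits replicates 1 and 2 from 3 and 4, and the omission of single libraries. Tables and figures were made with Python 3.11.15, pandas 2.3.3, scipy 1.17.1 and matplotlib 3.10.9.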

Additional observations from a re-analysis of the deposited data

How the results depend on the processing

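No alternative with a p changed the call of a PDGF gene. The limma adjusted p ran from 2.31e-05 to 0.000260 for Pdgfra and from 0.00200 to 0.0118 for Pdgfa over 16 alternatives each, and from 0.482 to 0.995 for Pdgfc over 15. Leaving out each library in turn, the log2 fold change ran from 1.41 to 1.55 for Pdgfra, -0.79 to -0.63 for Pdgfa, -0.13 to 0.11 for Pdgfc, 0.17 to 0.32 for Pdgfrb, -0.053 to -0.0064 for Pdgfb and -0.044 to 0.061 for Pdgfd. Pdgfc, called in no fit, turned sign with quantile normalization (-0.15) and without Med23+/+ replicate 3 or Med23-/- replicate 1 or 2. Pdgfd turned with a pseudocount of 0.1 (-0.069), with quantile normalization (-0.011) and without Med23+/+ replicate 3 or 4 or Med23-/- replicate 2 or 3. Among the genes not called, Plat ran from -0.076 to 0.041 and turned without Med23+/+ replicate 1 or 3 or Med23-/- replicate 2, and Vegfb ran from -0.013 to 0.24 and turned without Med23-/- replicate 4. The 1957 genes called higher became 1281 at a mean of at least 5 FPKM, where fewer genes were tested, and the 367 with a fold change above 2 became 654 with a pseudocount of 0.1. Without 1 library, 1227 to 1669 genes were lower and 1531 to 1867 higher, or 200 to 228 and 279 to 481 with a fold change above 2. Samples of the same replicate number share only a number (correlations of their deviations -0.0960 to 0.159, and 3 of 8 libraries correlated best with their own number). Genes named only after their values were seen were not followed through the alternatives. A fit with the replicate number as a block gave 1835 genes lower and 2085 higher, with limma adjusted p of 0.000260 for Pdgfra and 0.00987 for Pdgfa. Among the other genes followed, the block lost Ptpn1 (0.0514) and Kdr (0.0605). Quantile normalization lost both (0.0568 and 0.0802) and called Itgav (0.0465), and Kdr was also lost without the level filter (0.0555). List counts moved by more than 1.5 times in 11 of 160 values over the other alternatives, 6 genes of the PI3K, AKT and mTOR arm being called higher with quantile normalization, and in 13 of 160 without 1 library. The listed regulators of Pdgfra had 2 genes called higher in place of 1 with the block, with quantile normalization and without Med23-/- replicate 3. With a pseudocount of 0.1 the log2 difference grew by over 1.5 times for Pdgfrb (0.87), Pdgfb (-0.21), Pdgfc (0.043), Kdr (1.49), Foxo1 (1.22) and A2m (-0.88), with no call changed. No p was computed without single libraries, and the block, the covariate and the fit without a variance trend were not run, for Pdgfrb, Pdgfb and Pdgfd, and a mean of at least 5 FPKM gives no value for these or for Pdgfc. The depth in reads is unknown, and near 0 FPKM the log2(FPKM + 1) scale compresses differences, which limits what can be seen for these 3 genes.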

Other observations

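Of 12 other genes of OPCs and of the committed precursors that follow them, 3 were called higher in Med23-/- iOLs, 6 lower and 3 not at all. Their median log2 fold change was -0.22. Over all genes tested, 15.9% were called higher and 14.1% lower, with a median log2 fold change of -0.012. Besides Cspg4, C1ql1, a secreted C1q-related protein gene, rose from 26.6 ± 2.08 to 42.9 ± 7.91 FPKM (log2 fold change 0.65, limma adjusted p = 0.00505). Tnr, the extracellular matrix protein tenascin-R, fell from 312 ± 34.7 to 144 ± 33.4 FPKM (log2 fold change -1.13, limma adjusted p = 0.00110). Gpr17, a receptor of committed precursors, fell from 698 ± 28.5 to 355 ± 124.5 FPKM (log2 fold change -1.05, limma adjusted p = 0.00991).

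Of 7 transcription factors listed as possible regulators of Pdgfra (Sox5, Sox6, Sox9, Sox10, Nkx2-2, Olig2 and Sp1), 1 was called higher and 4 lower, with a median log2 fold change of -0.45. Beside these counts stand 15.9% higher and 14.1% lower over all genes tested. The higher count of this list was 2 with the replicate number as a block, with quantile normalization and without Med23-/- replicate 3. Sox9, a factor of early precursors, had 7.80, 7.11, 4.89 and 6.92 FPKM in Med23+/+ and 48.5, 43.2, 33.1 and 71.5 FPKM in Med23-/- replicates 1 to 4 (log2 fold change 2.67, limma adjusted p = 4.16e-05). Nkx2-2, which the study counts among differentiation regulators, had 259.8, 219, 259 and 267 FPKM in Med23+/+ and 83.8, 80.9, 55.3 and 64.9 FPKM in Med23-/- replicates 1 to 4 (log2 fold change -1.82, limma adjusted p = 2.94e-05). Sox5, a partner of Sox6 in OPCs, fell from 32.7 ± 4.41 to 17.5 ± 1.11 FPKM (log2 fold change -0.85, limma adjusted p = 0.000273). Sox6 itself fell from 121 ± 7.38 to 88.2 ± 7.55 FPKM (log2 fold change -0.45, limma adjusted p = 0.00356). Sox10 fell from 255 ± 23.1 to 183 ± 32.4 FPKM (log2 fold change -0.49, limma adjusted p = 0.0203). Olig2 was not called (0.51, limma adjusted p = 0.0621), nor was Sp1, as given above. Whether any of these bears on the Pdgfra level was not tested.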
